A study of Mus musculus with 14 samples.

Results

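The contacts of 10 genes of the ephrin and Eph receptor family were read from 8 lists of chromatin loops. The members were the ephrins Efna1, Efna5, Efnb1 and Efnb2 and the receptors Epha2, Epha4, Epha7, Ephb1, Ephb2 and Ephb3, among 17491 protein-coding genes with a RefSeq start site. A loop belonged to a member when 1 of its anchors was the 10 kb bin of mm10 that holds the member's start site, called the start bin below. All 10 members had at least 1 such loop in some list, between 4 for Efna1 and 248 for Epha4 over the 8 lists. Whenever a start bin had loops, the list marked that bin as an H3K4me3 peak bin.

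The assay was H3K4me3 PLAC-seq, which enriches proximity-ligated chromatin for a histone mark of active promoters, so that contacts of promoters are read preferentially. The groups were 4, each with 2 samples: neural precursor cells differentiated for 4 days with auxin (NPC auxin), the same without auxin (NPC control), embryonic stem cells after 48 h of auxin (ESC auxin) and embryonic stem cells at 0 h of auxin (ESC control). All came from F123, a mouse embryonic stem cell line, and all carried CTCF-AID, that is CTCF with the auxin-inducible degron. Auxin was added to deplete CTCF, the DNA-binding protein that holds cohesin at loop anchors, as 1 µl of a 500 mM stock per ml of medium. The CTCF level was not analysed here, and the sources used here do not say whether the line was 1 clone. Each group had 1 list from the caller MAPS and 1 from the caller FitHiChIP, so no list was replicated and no p-value could be given for a condition. Intervals are exact 95% intervals for counting error only, and loops to neighbouring bins are not independent. In such bulk populations, fewer cells with a contact and a weaker contact in each cell cannot be told apart.

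The MAPS lists held 41667 loops in NPC auxin, 82861 in NPC control, 27610 in ESC auxin and 56714 in ESC control, and the FitHiChIP lists 24836, 44892, 22705 and 33475 in the same order. Depth in total contacts was similar, with 59961568 contacts in NPC auxin, 52337421 in NPC control, 48307867 in ESC auxin and 47519917 in ESC control. Reads at H3K4me3 peak bins were higher in NPCs. The median log2 ratio of NPC control to ESC control was 0.98 over 11563 peak bins in MAPS. In FitHiChIP it was 0.43 over 11092 peak bins. The part of this in the loop counts was not tested. MAPS lists reach from 20 to 1000 kb on autosomes, and FitHiChIP lists from 20 to 2000 kb with the X chromosome, so Efnb1 was read from FitHiChIP. Because the auxin lists were 50.3% as long as the control list in NPCs and 48.7% in ESCs, a relative log2 change is given for each member: the log2 ratio of loops plus 1 between 2 lists, minus the log2 ratio of the list lengths. The NPC label was checked on reads at the start bins of marker genes. Relative to all peak bins, 4 of 6 NPC markers were higher in NPC control than in ESC control (Sox1 by 0.87 on the log2 scale), but Pax6 was at -0.17 and Nes at -0.39. Of the ESC markers 1 of 4, Klf4 at 0.48, was higher (Pou5f1 at -1.46, Nanog at -1.40). Both sets held 8 genes. Dppa5a and Sox3 were without a start site, and the rest had no called loop, and so no reads given, in either or both MAPS control lists. Their H3K4me3 is therefore not known from this. Tubb3, the 1 neuron marker with reads in both FitHiChIP control lists, was at -0.36 there. Of other lineages, 2 of 2 neural crest markers and 2 of 3 mesoderm or endoderm markers were also higher in NPC control, and their part in the results below was not tested.

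Ephrins are membrane-bound ligands, tethered by a lipid anchor in the A class and by a transmembrane segment in the B class, and Eph receptors are the receptor tyrosine kinases they bind on a neighbouring cell. Binding signals into both cells, and the usual outcome is repulsion or sorting of cells, which sets boundaries between hindbrain segments and somites and guides axons. Epha4 is a standard example in mouse and human of a gene whose distant regulatory regions lie within one large topological domain. H3K4me3 PLAC-seq reads which distant bins touch such a promoter, not whether the gene is transcribed.

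The 250 bases upstream of 3 members' start sites are shown, because the start bin is the fixed end of every loop described here and these members had the most different courses: most of the loops of Efnb2 in NPC control were missing in NPC auxin, Epha4 had the most loops, and Ephb3 had as many in NPC auxin as in NPC control in the MAPS lists. The sequences are from RefSeq, assembly GRCm38.p6, read 5′ to 3′ in the direction of the gene, with CpG dinucleotides in capitals. They lie at chr8:8661243-8661492 on the minus strand (Efnb2), chr1:77515089-77515338 on the minus strand (Epha4) and chr16:21204545-21204794 on the plus strand (Ephb3).
Efnb2: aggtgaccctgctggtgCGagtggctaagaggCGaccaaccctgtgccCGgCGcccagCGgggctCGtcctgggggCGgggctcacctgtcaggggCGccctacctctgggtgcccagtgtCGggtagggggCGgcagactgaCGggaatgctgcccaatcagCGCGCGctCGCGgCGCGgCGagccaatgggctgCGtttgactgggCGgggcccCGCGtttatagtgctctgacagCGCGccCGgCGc
Epha4: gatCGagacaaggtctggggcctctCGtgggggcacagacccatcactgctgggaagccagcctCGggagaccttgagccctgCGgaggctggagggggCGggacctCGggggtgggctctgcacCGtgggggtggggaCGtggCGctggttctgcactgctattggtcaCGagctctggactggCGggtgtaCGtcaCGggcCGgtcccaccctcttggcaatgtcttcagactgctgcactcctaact
Ephb3: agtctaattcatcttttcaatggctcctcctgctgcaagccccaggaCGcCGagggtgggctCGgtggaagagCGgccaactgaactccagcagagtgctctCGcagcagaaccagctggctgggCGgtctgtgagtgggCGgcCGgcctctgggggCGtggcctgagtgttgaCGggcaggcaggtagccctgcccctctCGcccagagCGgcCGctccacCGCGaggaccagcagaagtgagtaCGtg
The windows hold 27 CpG for Efnb2, 14 for Epha4 and 16 for Ephb3. Over 300 bases around the start site, from 250 before to 50 after it, the members ranged from 10 CpG at Epha2 to 38 at Efna5, against a median of 13 over all 17491 promoters. A simplified core of the CTCF motif (CC, 3 free bases, AGG, 1 free base, GGC), searched on both strands, occurred in 0 of the 10 members' windows and in 4.14% of all promoters.

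The MAPS start bins of the 9 autosomal members together had 124 loops in NPC auxin, 260 in NPC control, 42 in ESC auxin and 90 in ESC control. The NPC control list held the most loops for Efna5, Efnb2, Epha4, Epha7 and Ephb1, whereas Ephb2 and Efna1 had the most in ESC control. Among the 15081 autosomal start bins, only 8, its own included, had at least as many MAPS loops in NPC control as Epha4. The same count was 36 for Efnb2, 53 for Efna5 and 63 for Ephb1, where the median start bin with any loop had 4. In FitHiChIP lists the sums over all 10 members were 73, 198, 29 and 64 in the same order of groups.

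**Figure D1:**
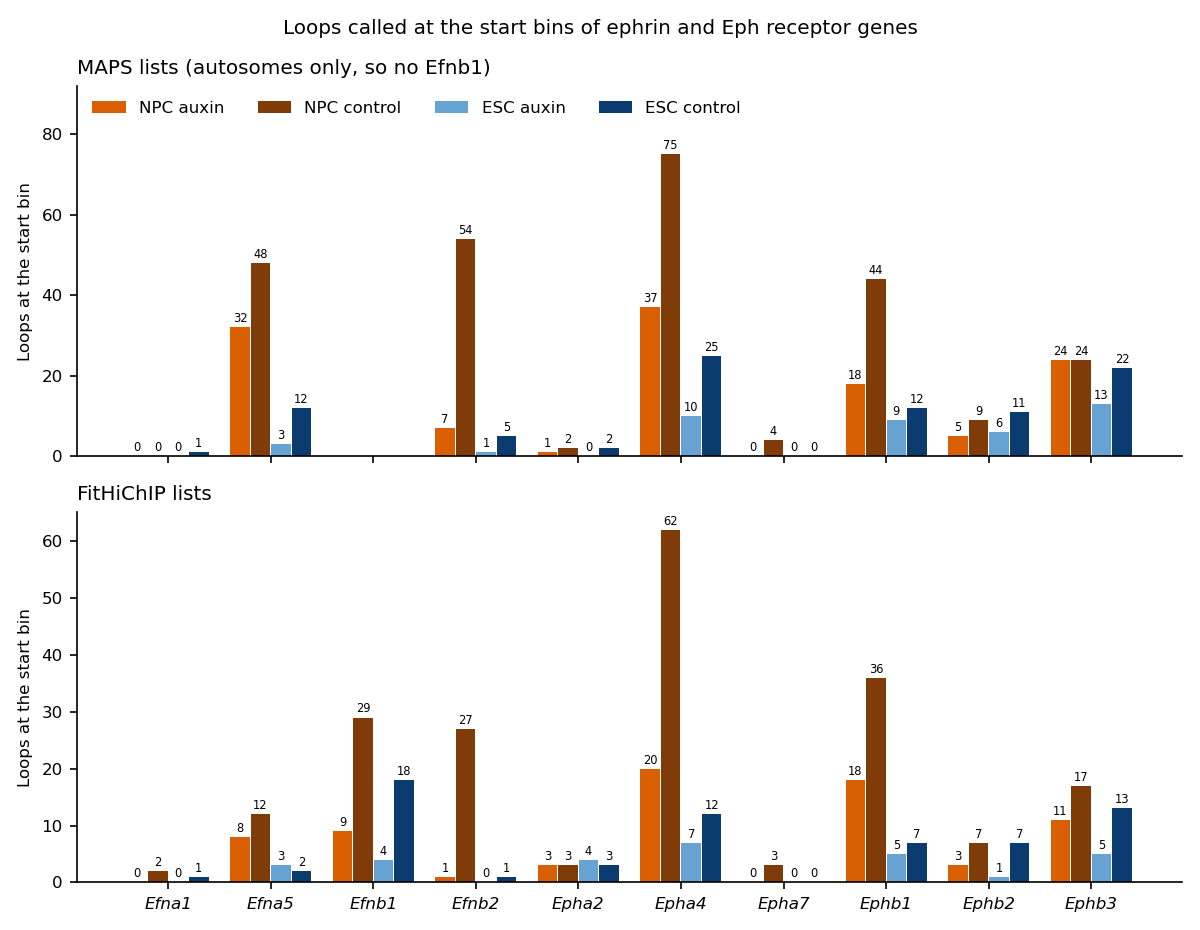
Loops at the start bin (vertical axis, count) of each of the 10 genes in the 4 MAPS lists (top) and the 4 FitHiChIP lists (bottom), 1 bar per group with its count above it. NPC control has the highest bar at Efna5, Efnb2, Epha4 and Ephb1 in both panels, and the Ephb3 bars of NPC auxin and NPC control are both at 24 in the MAPS lists.

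The first comparison was between cell types without auxin. Relative to the list, loops in NPC control exceeded those in ESC control at Efnb2 by 2.65 on the log2 scale (interval 1.58 to 4.57), at Efna5 by 1.37 (0.52 to 2.50), at Ephb1 by 1.24 (0.38 to 2.38) and at Epha4 by 1.00 (0.37 to 1.75). Relative changes of Ephb3 (-0.43, interval -1.32 to 0.48) and Ephb2 (-0.81, interval -2.29 to 0.57) had intervals across 0. Thus 4 of the 6 members with at least 10 loops in the pair of lists were at or over a 2-fold relative increase, which 18.1% of 2739 such start bins reached. None was at or under a 2-fold relative decrease (10.3% of start bins). The median relative change was 1.12 over the 6 members and 0.04 over those start bins. The members were chosen with earlier results of these data known, so these shares describe them and are not a test. Here and in the comparisons below, a bin can pass the limit of 10 loops through the list where it is high. Efnb2 did so here, with 5 loops in ESC control and 54 in NPC control. In raw counts 5 of the 6 had more loops in NPC control (74.3% of start bins), and 1, Ephb2, had fewer (19.6%). With runs of adjacent partner bins merged into 1 loop, Efnb2 was at 1.66 (interval 0.35 to 3.92), while Efna5 at 0.52 (interval -0.61 to 1.93), Ephb1 at 0.59 (interval -0.52 to 1.99) and Epha4 at 0.19 (interval -0.93 to 1.46) were under the 2-fold increase with intervals across 0. FitHiChIP placed 4 of 7 members at or over the increase, against 18.4% of 1497 start bins. Of these, Efna5, Efnb2 and Ephb1 passed the limit of 10 loops through NPC control, with 2, 1 and 7 loops in ESC control. Summed over the 9 autosomal members the relative change was 0.97 (interval 0.63 to 1.35), or 0.46 with merged partners (interval -0.05 to 1.02). Of the 90 ESC control loops, 74 were called again in NPC control with both anchors in the same bins (82.2%, interval 72.7 to 89.5), against 50.3% of all ESC control loops. The loops of the ESC control list were therefore mostly also in NPC control, and the NPC control list added further partners to them.

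With auxin in NPCs, loops were fewer at 5 of the 6 members with at least 10 loops, a direction that 78.2% of 2587 start bins shared. Relative to the shorter list, Efnb2 was the 1 of the 6 at or under a 2-fold decrease in MAPS, with -1.79 (interval -3.34 to -0.82), as were 11.5% of those start bins. With merged partners it was at -1.30 (interval -3.56 to 0.01). In FitHiChIP lists up to 1000 kb, the range of MAPS, Epha4 at -1.71 (3 loops in NPC auxin and 25 in NPC control, interval -4.44 to -0.36) and Ephb1 at -1.39 (4 and 25 loops, interval -3.64 to -0.12) were past the 2-fold decrease as well. Ephb3 stood at the other end with 0.99 (interval 0.11 to 1.87), just under the 2-fold increase that 16.5% reached, but in FitHiChIP at 0.27 (interval -1.01 to 1.40). In MAPS Epha4 was at -0.01 (interval -0.64 to 0.56), and the sum of the 9 at -0.07 (interval -0.40 to 0.24), or at 0.18 without Efnb2. In FitHiChIP the sum was lower, at -0.53 (interval -0.99 to -0.12), or -0.78 up to 1000 kb (interval -1.42 to -0.23). The median relative change was 0.12 over the 6 members and 0.31 over the 2587 start bins. Loops of NPC control called again in NPC auxin numbered 95 of 260 (36.5%, interval 30.7 to 42.7) in MAPS, against 27.0% of all loops. The callers differed in this, since in FitHiChIP 40 of 169 were (23.7%, interval 17.5 to 30.8), against 35.8% of all loops. Among members with at least 10 MAPS loops in the pair of lists the share ran from 6 of 54 at Efnb2 (11.1%, interval 4.19 to 22.6) to 17 of 24 at Ephb3 (70.8%, interval 48.9 to 87.4). These are the lowest and highest shares, and many of the loops lie in runs of adjacent bins, so the difference was not tested. None of the 4 loops of Epha7 and the 2 of Epha2 was called again.

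With 48 h of auxin in ESCs, all 5 members with at least 10 loops had fewer, as did 77.3% of 1474 start bins. None of the 5 reached a 2-fold relative change either way in MAPS, where 10.4% of start bins were at or under the decrease and 22.7% at or over the increase. The median was 0.26 over the 5 and 0.36 over the 1474 start bins. Relative changes ran from -0.66 at Efna5 (interval -3.43 to 0.93) to 0.66 at Ephb1 (interval -0.80 to 1.99). Efnb1, read from FitHiChIP, was lower at -1.37 (interval -3.63 to -0.01), where 8.33% of 768 start bins were at or under a 2-fold decrease in those lists. With merged partners in MAPS, Epha4 was past the 2-fold decrease at -1.67 (interval -7.98 to 0.23). In FitHiChIP Ephb2 was at -1.44, with 1 loop in ESC auxin and 7 in ESC control (interval -7.74 to 0.71). Of the 90 MAPS loops in ESC control, 26 were called again in ESC auxin (28.9%, interval 19.8 to 39.4), against 22.9% of all loops, whereas in FitHiChIP 13 of 46 were (28.3%, interval 15.99 to 43.5), against 43.3% of all loops. The 26 in MAPS belonged to Ephb3 (11), Epha4 (9), Ephb2 (5) and Ephb1 (1), and no ESC control loop of Efna5 or Efnb2 was among them.

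**Figure D2:**
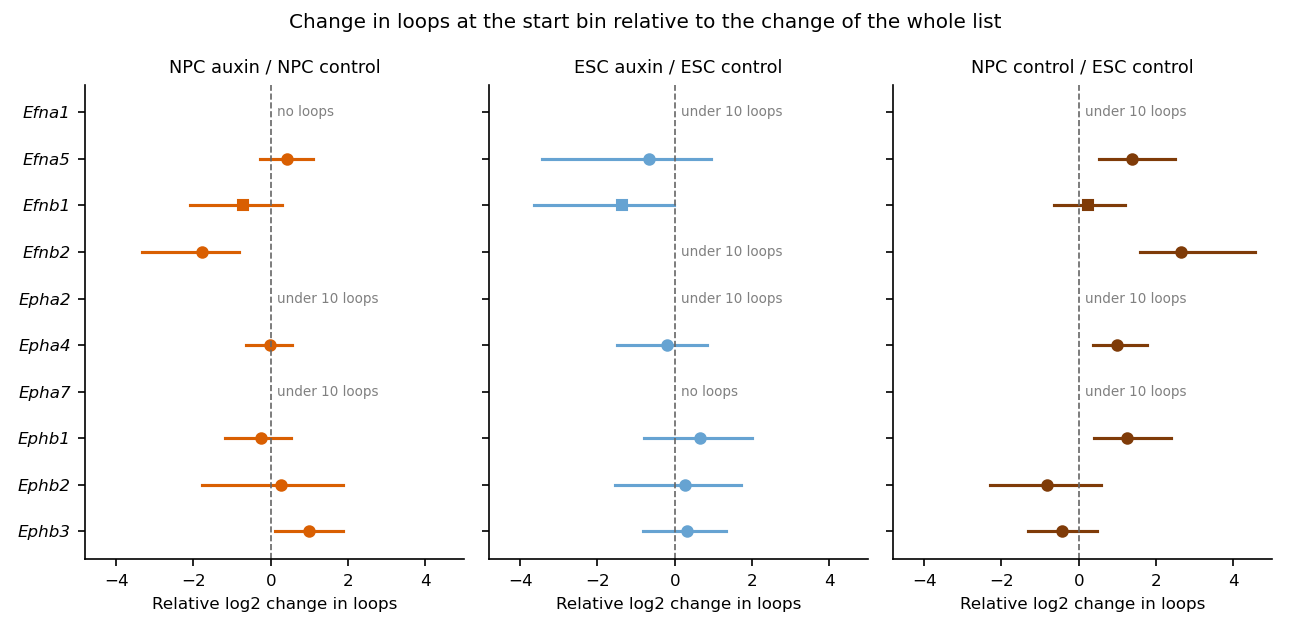
Relative log2 change in loops (horizontal axis) for each gene in NPC auxin against NPC control, ESC auxin against ESC control, and the controls of both cell types (NPC over ESC), with exact 95% counting intervals; circles are MAPS, squares FitHiChIP (Efnb1), and genes with under 10 loops in the pair of lists are not drawn. Efnb2 lies left of 0 at -1.79 with auxin in NPCs and right of 0 at 2.65 in the comparison of the control lists.

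**Figure D3:**
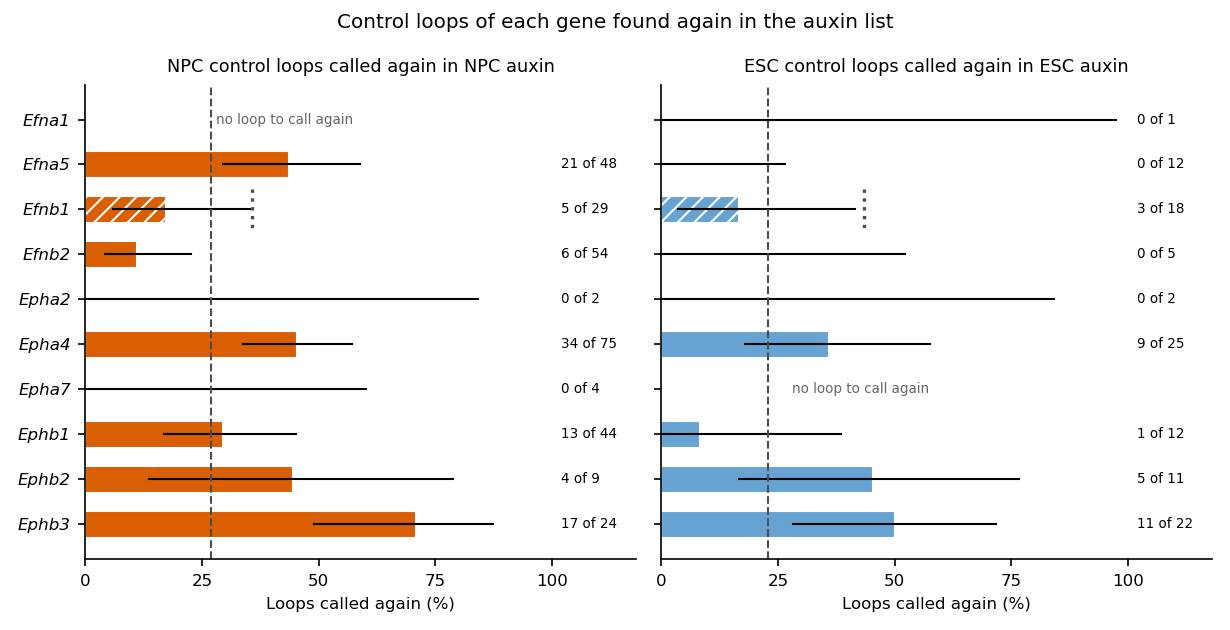
Share of each gene's control loops that the auxin list of the same cell type called again (horizontal axis, percent; thin lines are exact 95% intervals, numbers at the right are counts). Dashed lines mark all MAPS loops (27.0% in NPCs, 22.9% in ESCs), the hatched Efnb1 bars are from FitHiChIP, and the dotted marks beside them are all FitHiChIP loops; Ephb3 has the highest share in both panels.

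In the auxin lists alone, the cell types differed in a like direction. The sample titles give 48 h of auxin for ESC auxin but no hours for NPC auxin. Cell type and length of exposure therefore cannot be told apart between these lists. NPC auxin had more loops than ESC auxin at 4 of the 5 members with at least 10 loops (74.8% of 1375 start bins), with relative changes of 2.45 at Efna5 (interval 1.15 to 5.17) and 1.20 at Epha4 (interval 0.26 to 2.47). These 2 of 5 were at or over a 2-fold increase, as were 20.4% of start bins. In FitHiChIP lists up to 1000 kb Epha4 had the other direction, at -0.75 with 3 loops in NPC auxin and 5 in ESC auxin (interval -3.59 to 1.46), and the sum of the 9 was at 0.42 (interval -0.40 to 1.31). ESC auxin loops called again in NPC auxin were 27 of 42 (64.3%, interval 48.0 to 78.4), against 37.8% of all. The 4 comparisons share lists with one another, so they are not independent.

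Among the ligands, Efna1, an A-class ephrin first found as a product that endothelial cells induce under inflammatory stimulation, had almost no loops. MAPS called 1, in ESC control, to a bin 170 kb downstream with 28 contacts. FitHiChIP called the pair 40 kb downstream, at the starts of Krtcap2 and Trim46, with 174 contacts in NPC control and 185 in ESC control, and in neither auxin list. A second annotated start of Efna1 lies in the adjacent bin, which had 1 MAPS loop, in ESC control.

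Efna5, a repulsive guidance cue for retinal and cortical axons, had 32 MAPS loops in NPC auxin, 48 in NPC control, 3 in ESC auxin and 12 in ESC control. Its partners in NPCs lay on both sides, and 97.9% of the 612 start bins with at least 10 loops in NPC auxin were at least as one-sided. Downstream, over 90 to 950 kb across and beyond the 278 kb gene, there were 17 loops in NPC auxin, 37 in NPC control, 0 in ESC auxin and 9 in ESC control. Upstream, over 280 to 980 kb, there were 15, 11, 3 and 3 in the same order. The upstream loops were thus at least as many with auxin as without it in both cell types, though only 5 of the 11 in NPC control and 0 of the 3 in ESC control were called again in the same bins. The pair 90 kb inside the gene had 92 contacts in NPC auxin and 66 in NPC control, and the pair at 230 kb had 50 and 56, with neither called in an ESC list. At the 21 loops shared by NPC auxin and NPC control, contacts summed to 669 in NPC auxin and 639 in NPC control, a centred log2 ratio of 0.14 (interval -0.02 to 0.30). Centred means after subtraction of the median ratio of all loops shared by the 2 lists. In ESC auxin the loop with most contacts, 23, ended at the start of Fbxl17, an F-box gene 620 kb upstream, and FitHiChIP listed that pair in both auxin lists, with 21 contacts in NPC auxin and 23 in ESC auxin, and in neither control list. FitHiChIP called fewer loops at Efna5, 8 in NPC auxin, 12 in NPC control, 3 in ESC auxin and 2 in ESC control.

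Efnb1, the X-linked B-class ligand whose loss disturbs craniofacial development, had 9 FitHiChIP loops in NPC auxin, 29 in NPC control, 4 in ESC auxin and 18 in ESC control. All its partners were downstream. Most lay 280 to 540 kb from the start, in a run of 25 bins with 5 loops in NPC auxin, 24 in NPC control, 4 in ESC auxin and 18 in ESC control. Only the pair at 390 kb was called in all 4 lists, with 26 contacts in NPC auxin, 67 in NPC control, 29 in ESC auxin and 42 in ESC control. The pair at 520 kb had 30 contacts in NPC control and 34 in ESC control and was called in neither auxin list. The control lists thus shared nearly the same run: 17 of the 18 ESC control loops were called again in NPC control, and contacts at these 17 summed to 502 in NPC control and 378 in ESC control, a centred log2 ratio of 0.11 (interval -0.08 to 0.31). With auxin, 5 of 29 loops were called again in NPC auxin and 3 of 18 in ESC auxin. Even there contacts were lower: 103 in NPC auxin against 195 in NPC control over 5 loops (centred -0.92, interval -1.28 to -0.57), and 64 in ESC auxin against 100 in ESC control over 3 loops (centred -0.64, interval -1.12 to -0.18). A nearer pair at 60 kb appeared in NPC auxin, with 48 contacts, and in no other list. Reads covering the start bin were at like levels with and without auxin, at 4690 in NPC auxin, 4336 in NPC control, 2521 in ESC auxin and 2633 in ESC control.

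Efnb2, the ligand of arterial endothelium that also marks hindbrain segments and somites, had 7 MAPS loops in NPC auxin, 54 in NPC control, 1 in ESC auxin and 5 in ESC control. NPC control stood apart from the other 3 lists. From 170 to 960 kb downstream there were 2 loops in NPC auxin, 44 in NPC control, 0 in ESC auxin and 4 in ESC control. The loops of NPC auxin that remained from NPC control were 4 upstream and 2 downstream. The pair with the lowest FDR in NPC control joined the start bin to a peak bin 330 kb upstream, at chr8:8990001-9000000. It had 48 contacts in NPC auxin, 77 in NPC control and 17 in ESC control, and was not called in ESC auxin. Downstream, the pair at 170 kb had 60 contacts in NPC control and 30 in ESC control, the pair at 440 kb had 41 in NPC control, and no auxin list called either. The 48 loops not called again in NPC auxin had a median of 23 contacts and of 3.35 times the expected count in NPC control, against 29 and 3.17 for the 6 called again. At the 6 loops called in both, contacts summed to 175 in NPC auxin and 229 in NPC control (centred -0.32, interval -0.61 to -0.03). At the 5 loops shared by the control lists they summed to 245 in NPC control and 104 in ESC control (centred 1.04, interval 0.71 to 1.39). FitHiChIP likewise had most loops in NPC control, with 1 loop in NPC auxin, 27 in NPC control, 0 in ESC auxin and 1 in ESC control, and a relative change in NPCs of -2.95 (interval -9.26 to -1.30). In those lists 7.68% of 1485 start bins were at or under a 2-fold decrease in NPC auxin, and Efnb2 was the 1 of 7 members among them.

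**Figure D4:**
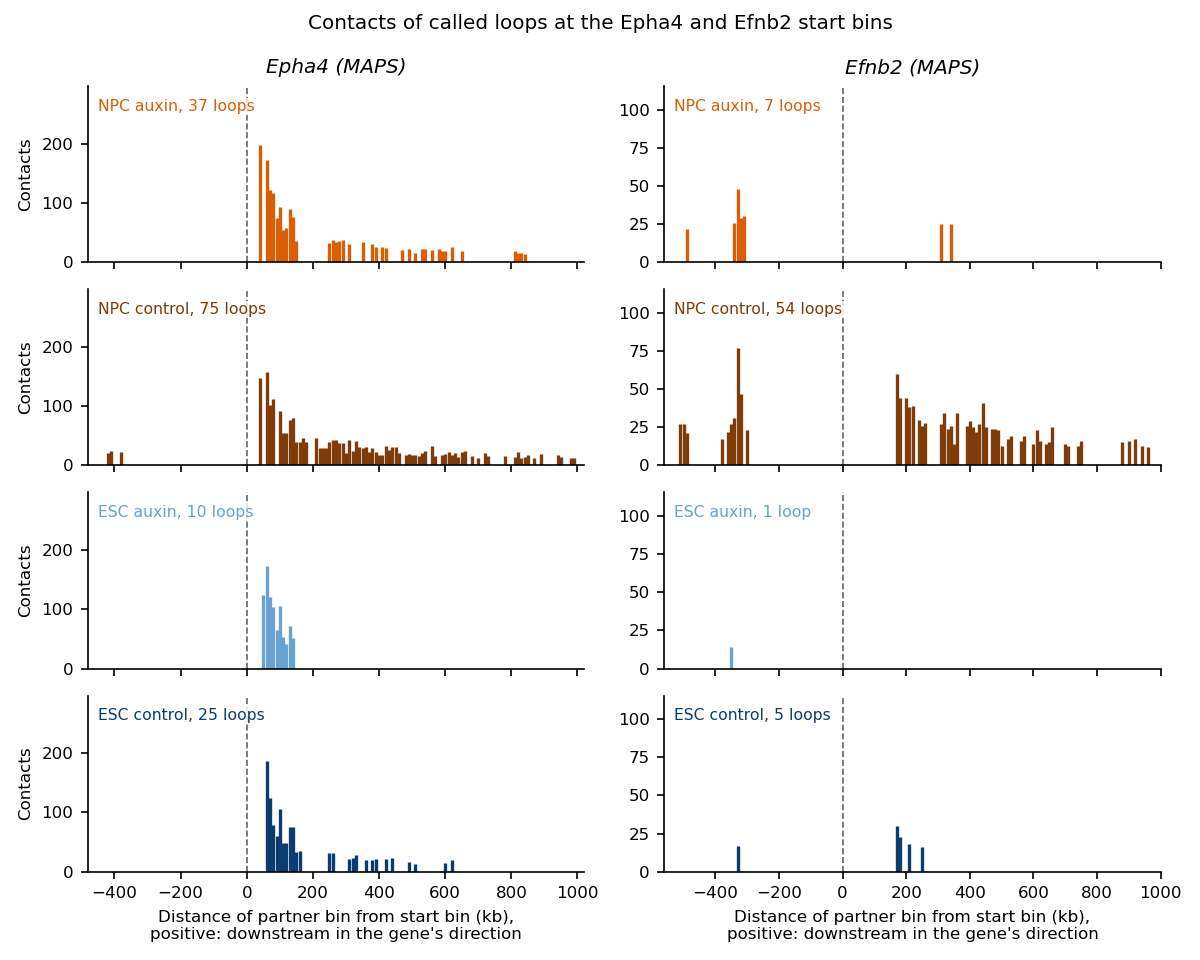
Contacts of each called MAPS loop (vertical axis, count) against the distance of the partner bin from the start bin (horizontal axis, kb, positive downstream) for Epha4 (left) and Efnb2 (right), 1 row per group. Epha4 loops at 40 to 140 kb stand in all 4 rows with up to 198 contacts, while the long row of low bars beyond is densest in NPC control, and for Efnb2 the downstream bars are nearly confined to NPC control, with 44 of 54 loops.

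Among the receptors, Epha2, which is found on epithelia and in early embryos, had few MAPS loops: 1 in NPC auxin, 2 in NPC control, 0 in ESC auxin and 2 in ESC control. The NPC loops lay 20 to 60 kb from the start with 180 to 369 contacts, and those of ESC control lay 140 kb upstream and 260 kb downstream with 59 and 28 contacts. FitHiChIP called the pairs 20 and 30 kb upstream and the pair 60 kb downstream, at the start of Fam131c, in all 4 lists. The Fam131c pair had 166 contacts in NPC auxin, 174 in NPC control, 97 in ESC auxin and 132 in ESC control. At the 3 pairs together contacts summed to 711 in NPC auxin and 642 in NPC control (centred 0.15, interval -0.01 to 0.30), and to 555 in ESC auxin and 736 in ESC control (centred -0.41, interval -0.57 to -0.25).

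Epha4, a receptor for both ephrin classes that stops corticospinal axons at the midline and patterns hindbrain and limb, had 37 MAPS loops in NPC auxin, 75 in NPC control, 10 in ESC auxin and 25 in ESC control. All but 3 partners, in NPC control, were downstream of the start. The nearest zone, 40 to 140 kb, lies within the 148 kb gene and had 10 loops in NPC auxin, 9 in NPC control, 10 in ESC auxin and 9 in ESC control. Every control loop of this zone was called again in the auxin list of its cell type. The strongest pair of ESC control, at 60 kb, had 173 contacts in NPC auxin, 157 in NPC control, 173 in ESC auxin and 186 in ESC control. Next to it, the pair at 70 kb had 122, 102, 121 and 125 contacts in the same order. At these pairs contacts were at like levels in the 4 lists, but the pair at 40 kb, with 198 contacts in NPC auxin and 148 in NPC control, was called in neither ESC list. FitHiChIP called few loops inside the gene, 0 in NPC auxin, 1 in NPC control, 4 in ESC auxin and 4 in ESC control.

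Beyond the zone inside the gene, from 150 to 990 kb downstream, the lists parted: there were 27 loops in NPC auxin, 63 in NPC control, 0 in ESC auxin and 16 in ESC control. Of the 63 in NPC control, 25 were called again in NPC auxin, whereas 0 of the 16 in ESC control were called again in ESC auxin. All 16 were in the NPC control list. The 16 had a median of 22 contacts, against 76 at the 9 loops of ESC control that ESC auxin also had, while the ratios to the expected count overlapped, with a median of 3.18 for the 16 and a range of 2.43 to 3.86 for the 9. FitHiChIP differed from MAPS in NPC auxin up to 1000 kb, the gene included. It had 3 loops in NPC auxin, 25 in NPC control, 5 in ESC auxin and 8 in ESC control there. From 1010 to 2000 kb downstream it had 17 loops in NPC auxin, 37 in NPC control, 2 in ESC auxin and 4 in ESC control. In that farther range the pair at 1860 kb was called in all 4 lists, with 29 contacts in NPC auxin, 43 in NPC control, 13 in ESC auxin and 12 in ESC control. At loops shared in NPCs, contacts summed to 1608 in NPC auxin and 1546 in NPC control over 34 MAPS loops (centred 0.13, interval 0.03 to 0.23), but to 138 in NPC auxin and 186 in NPC control over 8 FitHiChIP loops (centred -0.43, interval -0.76 to -0.11). The number of FitHiChIP loops was also relatively lower in NPC auxin, at -0.73 (interval -1.58 to -0.03), where the MAPS value was -0.01.

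The start bins whose loop counts over the 8 lists were nearest to those of Epha4, by Euclidean distance of log2(loops + 1), were those of Foxo1 (0.74), Cited2 (1.13) and Hoxa9 (1.16). Foxo1, which codes for a forkhead transcription factor, had 40 MAPS loops in NPC auxin, 76 in NPC control, 14 in ESC auxin and 31 in ESC control. In that measure a distance of 0 would mean equal counts in every list.

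Epha7, a receptor with neural tube and cortical functions, had MAPS loops in NPC control and in no other list. The 4 pairs lay 490, 520 and 530 kb downstream and 850 kb upstream and had 16, 16, 12 and 13 contacts, near the minimum of the list. FitHiChIP called 3 loops, also in NPC control.

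Ephb1, which steers retinal axons that do not cross at the optic chiasm, had 18 MAPS loops in NPC auxin, 44 in NPC control, 9 in ESC auxin and 12 in ESC control. Its gene spans 433 kb, and loops inside and beyond it were counted apart. From 190 to 430 kb downstream there were 2 loops in NPC auxin, 13 in NPC control, 5 in ESC auxin and 7 in ESC control. From 460 to 980 kb there were 14, 31, 1 and 5 in the same order. Of NPC control loops within the gene, 1 of 13 was called again in NPC auxin (7.69%, interval 0.19 to 36.0). Of those outside it 12 of 31 were (38.7%, interval 21.8 to 57.8), and the intervals overlap. The lowest FDR of any Ephb1 loop in the MAPS lists was at the pair 660 kb downstream in NPC control, which had 49 contacts there, 16 in NPC auxin and 16 in ESC control, and was not called in ESC auxin. FitHiChIP followed this locus further, with 14 loops in NPC auxin, 12 in NPC control, 2 in ESC auxin and 2 in ESC control from 1000 to 1240 kb. The pair at 1030 kb was in all 4, with 20 contacts in NPC auxin, 27 in NPC control, 15 in ESC auxin and 21 in ESC control.

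Ephb2, a receptor of intestinal crypts and of excitatory synapses, was the member with fewer loops in NPC control than in ESC control among the 6 with at least 10 loops in that pair. It had 5 MAPS loops in NPC auxin, 9 in NPC control, 6 in ESC auxin and 11 in ESC control. Most ended 110 to 200 kb downstream, within the 189 kb gene, with 5, 9, 5 and 8 loops in the same order. The pair at 150 kb had 70 contacts in NPC auxin, 101 in NPC control, 60 in ESC auxin and 91 in ESC control, and the pair at 160 kb, whose partner is a peak bin, had 53, 98, 51 and 86. Both pairs were called in all 4 lists but with fewer contacts in each auxin list. Over the loops shared by NPC auxin and NPC control, 217 contacts stood against 325 (4 loops, centred -0.51, interval -0.77 to -0.26), and over those shared by ESC auxin and ESC control 230 against 329 (5 loops, centred -0.41, interval -0.66 to -0.16). The 4 loops are among the 5, and each had fewer contacts with auxin. In FitHiChIP the 3 loops shared by the NPC lists were at -0.24 (interval -0.53 to 0.05), and 1 of the 3 had fewer contacts in NPC auxin.

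Ephb3, which acts with Ephb2 in placing cells along the crypt and in commissural axons, had 24 MAPS loops in NPC auxin, 24 in NPC control, 13 in ESC auxin and 22 in ESC control. Its partners formed a block on each side. In NPC control 96.5% of the 1391 start bins with at least 10 loops were at least as one-sided. Upstream, 360 to 530 kb away, there were 10 loops in NPC auxin, 11 in NPC control, 8 in ESC auxin and 8 in ESC control. Downstream, 100 to 280 kb away, there were 14, 13, 5 and 14. The upstream block thus had like numbers in the 4 MAPS lists, and the downstream block had fewer loops in ESC auxin, which called 5 of the 14 of ESC control. FitHiChIP had 11 loops in NPC auxin, 17 in NPC control, 5 in ESC auxin and 13 in ESC control. Of these, 5 were upstream in each list, and 6, 12, 0 and 8 downstream, so that in FitHiChIP the downstream loops were fewer with auxin in NPCs too.

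The upstream block reached the starts of other genes. The pair 490 kb away, at the starts of Clcn2 and Polr2h, had 57 contacts in NPC auxin, 49 in NPC control, 31 in ESC auxin and 38 in ESC control. The pair 510 kb away, at Fam131a, had 29, 21, 26 and 20 contacts in the same order. At 470 kb the bin holds the starts of Thpo, the gene of thrombopoietin, and of Chrd, the gene of the BMP antagonist chordin, and the pair had 30, 36, 24 and 29 contacts. Among downstream pairs, the one at 190 kb had 106 contacts in NPC auxin, 207 in NPC control, 48 in ESC auxin and 119 in ESC control, and the one at 130 kb had 110, 146 and 76 in NPC auxin, NPC control and ESC control and was not called in ESC auxin. At both pairs contacts were fewer in each auxin list that still called them. Over all shared loops they summed to 845 in NPC auxin and 1120 in NPC control (17 loops, centred -0.34, interval -0.47 to -0.21), and to 312 in ESC auxin and 445 in ESC control (11 loops, centred -0.41, interval -0.62 to -0.19). In FitHiChIP the NPC lists gave -0.39 over 10 loops (interval -0.55 to -0.23), but the ESC lists, with 4 shared loops, all upstream, gave 0.10 (interval -0.31 to 0.51).

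**Figure D5:**
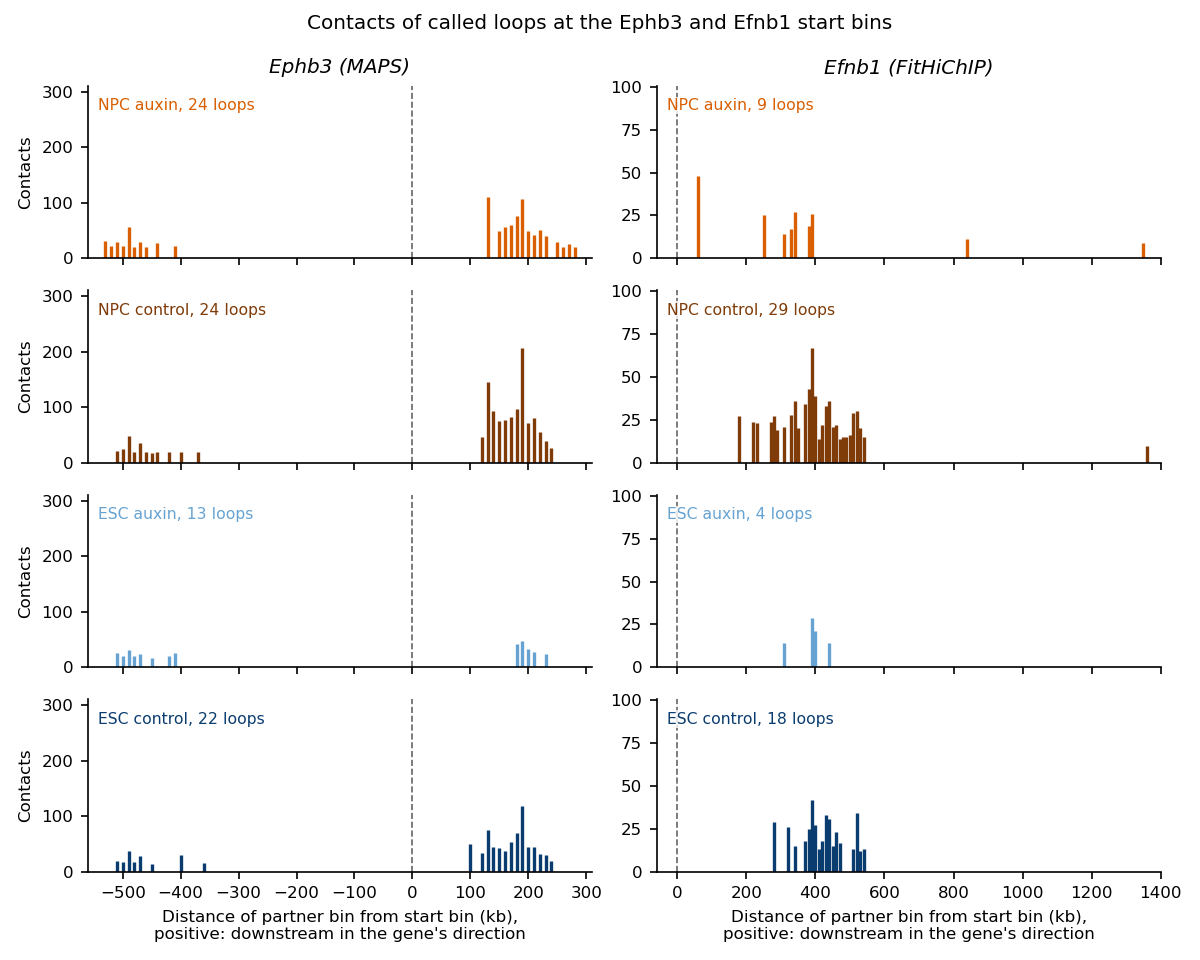
Contacts of each called loop (vertical axis, count) against the distance of the partner bin from the start bin (horizontal axis, kb, positive downstream) for Ephb3 in MAPS (left) and Efnb1 in FitHiChIP (right), 1 row per group. The upstream block of Ephb3 is present in all 4 rows with 8 to 11 loops, its downstream block is lower in the auxin rows, and the run of Efnb1 loops at 280 to 540 kb has 24 and 18 loops in the control rows.

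MAPS called 309 bin pairs for the 9 autosomal members in any list. Of these, 132 were in NPC control only (42.7%, against 30.2% of all 137221 pairs), and FitHiChIP gave 51.2% against 27.7%. The 132 were mostly of a few genes: 43 of Efnb2, 36 of Epha4 and 22 each of Efna5 and Ephb1. Epha7 had 4, Ephb2 and Epha2 had 2 each, and Ephb3 had 1. Another 22 of the 309 were in all 4 lists (7.12%, against 4.34%), of which 10 were of Ephb3, 8 of Epha4 and 4 of Ephb2. Pairs in both control lists and neither auxin list were 25 (8.09%, against 10.2%). In FitHiChIP both of these shares stood on the other side of all pairs, with 4.10% against 10.5% in all 4 lists and 10.7% against 8.21% in the control lists alone. Pooled over members in MAPS, loops that an auxin list called again had more contacts in the control list than those it did not. The medians were 31 against 21 for NPC control loops and 49 against 21.5 for ESC control loops. At Ephb3 in ESCs the direction was the other way, with 30 against 37, and in FitHiChIP with 22.5 against 53. Pooled over members, MAPS loops called again were also shorter. The medians were 390 kb against 450 kb in NPC control and 165 kb against 315 kb in ESC control. This did not hold within each member: at Ephb1 in NPCs the medians were 670 kb against 540 kb, and at Ephb3 in ESCs 450 kb against 160 kb. Among ESC control loops of members, 15 of 29 with the partner inside the member's own gene were called again in ESC auxin (51.7%, interval 32.5 to 70.6) and 11 of 61 with it outside (18.0%, interval 9.36 to 30.0). These pooled shares mix different genes. Inside, the counts were 9 of 10 at Epha4, 5 of 8 at Ephb2, 1 of 7 at Ephb1 and 0 of 4 at Efna5. Outside, all 11 were of Ephb3 (11 of 22). In FitHiChIP the pooled counts inside and outside were 4 of 10 and 12 of 54, with overlapping intervals. In NPC auxin the shares were 19 of 43 (44.2%) and 76 of 217 (35.0%), with overlapping intervals.

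Pooled over members, partner bins were marked as H3K4me3 peak bins less often than those of all start bins in each of the 8 lists. The sets are not alike: every member start bin with loops was a peak bin, whereas the start bins of all genes were not limited to peak bins. How much of the difference comes from this was not tested. In MAPS NPC control 13 of 260 partner bins (5.00%, interval 2.69 to 8.40) were so marked, against 32.0% over the loops of all autosomal start bins. This did not hold for each member. The counts were 0 of 75 at Epha4, 0 of 44 at Ephb1, 1 of 48 at Efna5 and 2 of 54 at Efnb2. They were 7 of 24 at Ephb3, 2 of 2 at Epha2, 1 of 9 at Ephb2 and 0 of 4 at Epha7. In ESC control the share was 15.6% against 43.9%, and the auxin lists gave 12.1% against 40.6% in NPC auxin and 26.2% against 54.1% in ESC auxin. Pooled over members, loops were also longer in NPCs: 39.6% of those in MAPS NPC control went beyond 500 kb, against 16.9% over all start bins. These were 30 loops each of Epha4 and Ephb1, 20 of Efnb2, 19 of Efna5, 3 of Epha7 and 1 of Ephb3. Ephb2 and Epha2 had none. FitHiChIP had higher shares of peak partners at members: 41.1% in NPC auxin against 80.8% over all start bins, 13.1% against 65.7% in NPC control, 62.1% (interval 42.3 to 79.3) against 74.5% in ESC auxin and 34.4% against 72.0% in ESC control. The interval in ESC auxin includes the share over all start bins. The peak marks are those of the cell type and are the same in its auxin and control lists, so they do not show H3K4me3 after auxin.

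Reads at the start bins give a separate measure of the promoter itself. In MAPS lists Efnb2 had 1737 reads in NPC auxin, 1664 in NPC control, 332 in ESC auxin and 294 in ESC control, and Efna5 had 2012, 1882, 570 and 477. Between the control lists Efnb2 was 1.52 and Efna5 1.00 above the median log2 ratio of 11563 peak bins, and 0.41% and 3.81% of these bins were higher. Epha4 had 1782, 1565, 808 and 667 reads in the same order of groups, and was 0.25 above that median. Epha2 was at -0.04, and Ephb1, Ephb2 and Ephb3 between 0.40 and 0.63. With auxin the members' start bins lay on both sides of the median of all peak bins, from -0.06 to 0.10 in NPCs over 7 members and from -0.20 to 0.15 in ESCs over 6. The spread over peak bins is narrow: in ESCs 89.7% were higher than Ephb2 at -0.20 and 16.8% higher than Ephb3 at 0.15. In FitHiChIP the ESC values ran from -0.21 at Epha2 (97.3% of bins higher) to 0.13 at Ephb3 (7.75% higher). The Efnb2 start bin thus had like numbers of reads in NPC auxin and NPC control, while its loops numbered 7 in NPC auxin and 54 in NPC control.

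For the rest of the family, a list of 12 other ephrin and Eph genes had 14 MAPS loops in NPC auxin, 50 in NPC control, 12 in ESC auxin and 33 in ESC control over the 11 with a start site; Efnb3 had none in the table. Loops were fewer in NPC auxin at 9 of the 9 with loops, against 69.9% of all start bins with loops, and in ESC auxin at 4 of 6, against 67.5%. More loops in NPC control than in ESC control were found at 4 of 9 genes (62.4% of all start bins with loops) and fewer at 4 (26.4%), and in FitHiChIP at 5 and 3 of 10; the difference from the members was not tested. Efna2, an A-class ligand, had 2 in NPC auxin, 11 in NPC control, 2 in ESC auxin and 15 in ESC control, and Ephb6, a receptor without kinase activity, had 7, 20, 2 and 2.

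A second list of 16 genes that act on or below the receptors had 34 MAPS loops in NPC auxin, 71 in NPC control, 6 in ESC auxin and 38 in ESC control; Sdcbp was without a start site. Loops were fewer in NPC auxin at 7 of 11 (69.9% of all start bins with loops) and more at 3 (20.5%), fewer in ESC auxin at 7 of 8 (67.5%), and more in NPC control than in ESC control at 7 of 9 (62.4%). Adam10, the protease that cleaves ephrins after binding, had 2 loops in NPC auxin, 13 in NPC control, 0 in ESC auxin and 3 in ESC control. Nck1, an adaptor recruited by activated receptors, had 3, 17, 3 and 9, and Nck2, its paralogue, 10, 9, 0 and 0. Nck1 loops were thus fewer in each auxin list, and those of Nck2 were found in NPCs alone in the MAPS lists.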

How the data were processed

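H3K4me3 PLAC-seq lists of 4 groups with 2 samples each, assigned by sample title, were used. The other 6 samples, of 3 dCas9 groups, were not analysed here. BWA, Picard and mm10 are named in the submitters' processing notes without versions; no source used here says whether samples were pooled for calling. Per the file headers, each deposited MAPS line gives contact counts of a 10 kb bin pair, counts at both anchors, the expected signal, the ratio of count to expected and an FDR. Deposited MAPS loops had at least 12 contacts, a ratio of at least 2.00 and an FDR under 0.01. Deposited FitHiChIP lines give contact counts, anchor coverage, the expected signal, the pair's expected fraction of contacts and a q-value. Expected contacts divided by that fraction gave total contacts. Each peak flag is the authors' own.

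Start sites are the outermost RefSeq promoter (GRCm38.p6, the chromosomes of mm10) of each gene; all 10 members matched. Loops were the same when both anchors were in the same bins. Relative changes used a pseudocount of 1, and binomial intervals are exact (Clopper-Pearson) at 95%. The interval of a relative change comes from the share of its loops in the first list. Contact ratios at shared loops were centred on their median over all shared loops. Python 3.11.15, pandas 2.3.3, NumPy 2.4.6, SciPy 1.17.1 and matplotlib 3.10.9 were used, and the calculations were tested on simulated lists. Named genes are the members, genes at the start bins of a member's 3 strongest loops or of loops in all 4 lists, the 2 gene lists, and the 3 genes nearest to Epha4 in loop counts. Members and lists were chosen with earlier results of these data known. Alternatives were the other caller, distance range, bins, FDR, count minimum, merging of adjacent partners, pseudocount, scaling, members left out and the second start of Efna1.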

Additional observations from a re-analysis of the deposited data

Results flagged for a closer look

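3 members had relative changes in loops with auxin of opposite sign in the cell types, in MAPS lists. Efna5 was at 0.42 in NPC auxin against NPC control and at -0.66 in ESC auxin against ESC control. Epha2 was at 0.41 in NPCs and at -0.55 in ESCs, from 3 loops in the NPC lists and 2 in the ESC lists. Ephb1 was at -0.25 in NPCs and at 0.66 in ESCs. The difference between cell types was not tested, since each group has 1 list, and all 6 counting intervals include 0. Nor can cell type be told apart from length of auxin exposure, for which the NPC titles give no hours.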

How the results depend on the processing

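No paired analysis was possible because each group has 1 deposited list per caller, with no replicate column. For the 9 autosomal members summed, the FitHiChIP lists moved the relative change in loops in NPC auxin against NPC control to -0.53, and to -0.78 up to 1000 kb (-0.07 in MAPS), and in NPC control against ESC control to 1.43 (0.97 in MAPS, 0.46 with adjacent partners merged). NPC auxin against ESC auxin moved to 0.42 in FitHiChIP up to 1000 kb (0.95 in MAPS). Shares called again were 61.5% in NPC auxin, 44.4% in ESC auxin and, for ESC auxin loops in NPC auxin, 81.0% with anchors allowed to differ by 1 bin, and 23.7% in NPC auxin (35.8% of all loops) and, for ESC control loops in NPC control, 69.6% (53.5% of all loops) in FitHiChIP. Centred contacts at shared loops moved to -0.34 (scaled by total contacts) and -0.18 (FitHiChIP) in NPC auxin against NPC control, and to -0.27 under both in ESC auxin against ESC control. They reversed to -0.036 in FitHiChIP for NPC control against ESC control (0.24 in MAPS). Epha4 reversed in NPC auxin against ESC auxin, to -0.75 with 3 against 5 loops in FitHiChIP up to 1000 kb (1.20 in MAPS). The causes were not tested. Leaving out 1 member, a choice made after seeing the data, moved the sum in NPC auxin against NPC control from -0.24 (without Ephb3) to 0.18 (without Efnb2) and in ESC auxin against ESC control from -0.18 (without Ephb1) to 0.06 (without Efna5). It ranged from 0.72 (without Efnb2) to 1.23 (without Ephb3) in NPC control against ESC control, and from 0.62 (without Efna5) to 1.16 (without Ephb3) in NPC auxin against ESC auxin. For single members, all 32 values at an FDR under 0.001, all 32 with neighbouring bins and all 32 at a pseudocount of 0.5 moved by less than their interval; 4 values moved further in FitHiChIP and 4 with merged partners. Contacts that missed a caller's threshold narrowly are not in the lists, so their counts cannot be compared.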

Other observations

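Some pairs of members were in both auxin lists and in neither control list. In MAPS there were 4 of 309 pairs (1.29%, against 1.31% of all pairs), 3 of Ephb1 and 1 of Ephb3. The Ephb1 pairs lay 360 kb downstream, with 29 contacts in NPC auxin and 21 in ESC auxin, and 430 and 440 kb upstream, with 20 and 19 contacts in NPC auxin and 17 each in ESC auxin. The Ephb3 pair, 410 kb upstream, had 23 contacts in NPC auxin and 26 in ESC auxin, and FitHiChIP called it in the same pair of lists. In FitHiChIP there were 5 of 244 such pairs (2.05%, against 1.38% of all).

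2 of these 5 were of Efna5, at the starts of Fbxl17 and of Fer, a non-receptor tyrosine kinase gene. The pair with Fer, 980 kb upstream, had 17 contacts in NPC auxin and 11 in ESC auxin. 2 more were of Epha4. One lay 1990 kb downstream, at the start of Stk11ip, with 11 contacts in NPC auxin and 10 in ESC auxin. The other lay 680 kb upstream, in the bin with 1 end of Pax3, the gene of a paired-box factor of dorsal neural tube and somites, with 27 contacts in NPC auxin and 20 in ESC auxin. Stk11ip and Pax3 were named after their values were seen, and so few pairs are described without a test.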
